A study of Mus musculus with 26 samples.

Results

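Transcription factors that set and hold the lineages of the mammary epithelium were followed in 4T1 cells with and without the lncRNA MaTAR25. The 10 genes, Gata3, Elf5, Foxa1, Esr1, Tbx2, Tbx3, Sox9, Sox10, Elf3 and Ehf, were chosen by name out of the 45318 genes counted, and all 10 were found by symbol. 4T1 is a mammary tumor cell line of BALB/c mice, and polyA RNA was sequenced from 2 control libraries of wild-type genotype, 3 libraries of MaTAR25 KO1 and 4 libraries of MaTAR25 KO2, all grown in DMEM with FBS. Per the study's methods, KO1 and KO2 are each 1 single-cell clone with a CRISPR/Cas9 deletion over the MaTAR25 start site. The control cells received a guide RNA to Renilla luciferase and were also grown as single-cell clones. The labels do not say how many control clones gave the 2 libraries. Within either clone the deletion and the clone cannot be told apart. A trait of the control cells cannot be told apart from an effect of the deletion either. MaTAR25 chromatin sites were taken from ChIRP, a pulldown of an RNA with the DNA it sits on, in 4T1 cells with a total, an odd and an even pool of antisense oligos and in NDL cells with the total pool. The labels describe the NDL cells as primary mammary tumor cells of FVB mice with the genotype MMTV-PyMT, while the study calls them MMTV-Neu-NDL and names the cultured line cNeu for the same list, so which cells they are is uncertain.

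In the mammary gland, luminal cells line the ducts and, in pregnancy, form milk-producing alveoli, while basal cells surround them. GATA3 is the factor without which luminal cells are not made or kept, and it works with the pioneer factor FOXA1 and the oestrogen receptor ESR1 in hormone-sensing cells, whereas the ETS factor ELF5 directs alveolar progenitors. ELF3 and EHF are epithelial ETS factors related to ELF5, TBX2 and TBX3 are T-box repressors needed for the early gland and often raised in breast tumors, and SOX9 and SOX10 are factors of progenitor and plastic states.

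The libraries held 25367211 to 61110585 counts on genes. CPM, used for all levels, are counts per million-read library after scaling with TMM factors, and 3 counts, the most that a count of 0 allows, correspond to 0.0478 to 0.126 CPM. This covers counting error only. The gene of MaTAR25 itself, 1200007C13Rik in the files, was counted 35 and 30 times in control, 2, 7 and 0 times in KO1 and 11, 1, 9 and 6 times in KO2, and was lower in KO than in control libraries (log2 fold change -2.63, adjusted p = 0.0561, edgeR). Across genes, libraries of KO2 correlated with each other at 0.960 to 0.979, below control (0.996) and KO1 (0.987 to 0.991), and genes are not independent replicates. KO2 replicate 3 had the highest KO2 level in 6 of the 7 factors that could be tested. The labels do not say whether the libraries of a group were separate cultures, so p-values measure the spread between these libraries, which may be technical.

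**Figure D1:**
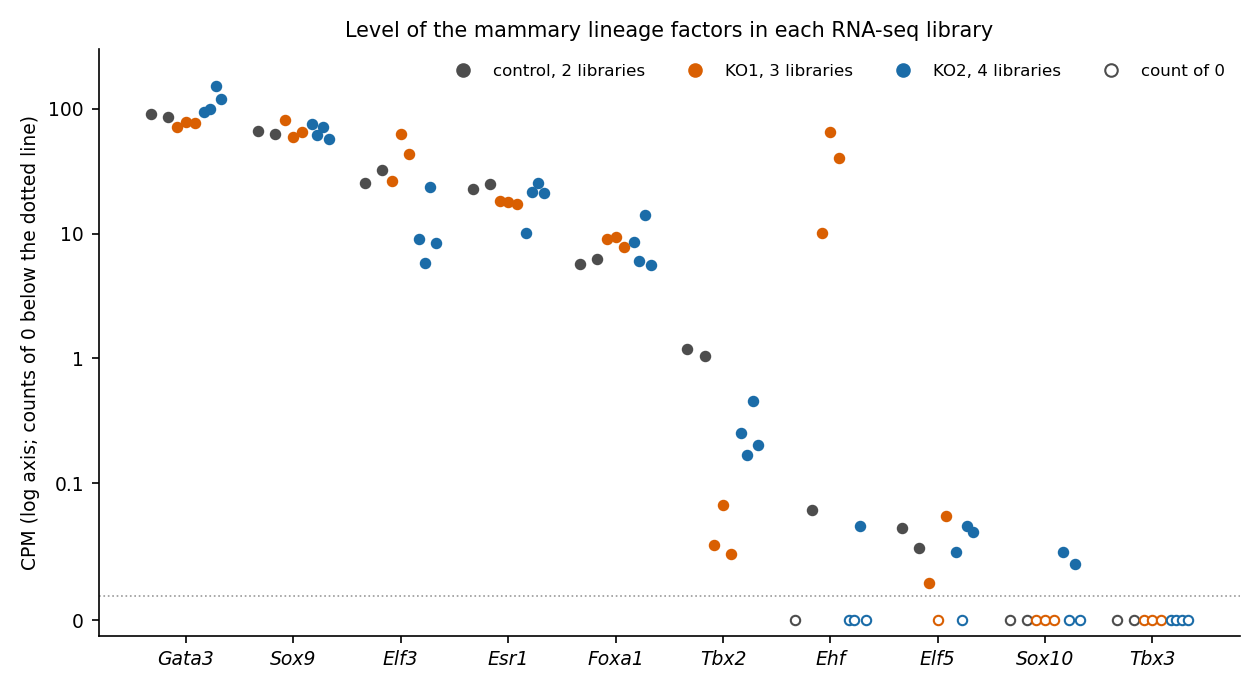
CPM of each of the 10 factors (x axis) in each RNA-seq library, on a log axis with counts of 0 drawn below the dotted line. Gata3, Sox9, Elf3, Esr1 and Foxa1 lie above 5 CPM in every library, Tbx2 falls from control to KO2 and KO1, Ehf is high in the 3 KO1 libraries alone, and Elf5, Sox10 and Tbx3 lie at or near 0.

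Control cells held 6 of these factors at unequal levels. To compare genes, CPM was divided by exon length in kb. Gata3 was highest at 22.2 CPM per kb in control cells (83.7th percentile of the tested genes), above Sox9 at 15.6 (76.1st percentile) and Elf3 at 12.9 (71.7th percentile). Foxa1 at 1.80 and Esr1 at 1.75 CPM per kb followed, and these neighbours did not differ beyond their spread, since the control libraries ran from 1.72 to 1.88 for Foxa1 and from 1.67 to 1.84 for Esr1. Tbx2 was low at 0.306 CPM per kb. Gata3, Sox9 and Elf3 did not overlap in the control libraries. Each of these gaps rests on 2 libraries and was not tested.

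The other 4 factors were near or at 0 in control cells. Ehf had 0 and 2 counts, Elf5 2 and 1 counts, and Sox10 and Tbx3 no count in either control library. Elf5 stayed at 0 to 2 counts in all 9 libraries, the highest level being 0.0541 CPM. Sox10 had 1 count in each of 2 KO2 libraries and none elsewhere, and Tbx3 had none in any library. Elf5, Sox10 and Tbx3 did not pass the filter on low counts, so 7 of the 10 factors were tested. Of these, Tbx2 and Ehf passed through the groups in which they are high.

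The lists of cell type markers gave the setting of these factors. Of 17 luminal markers, Kit alone had no count in any library, and their summed level was 5890 to 6010 CPM in control, 7280 to 8940 in KO1 and 3290 to 5810 in KO2. The KO1 rise was mostly Krt7 (means of 789 CPM in control and 2930 in KO1) and Krt8 (432 and 1080). Other markers moved both ways in KO1, with lower means for Cldn4 (1410 and 1140) and Cdh1 (849 and 637) and a higher one for Cldn3 (352 and 484). Of 10 milk and alveolar genes, some of which ELF5 is known to drive, Csn1s1, Csn1s2a, Csn2 and Lalba had no count in any library, and 0 of 4 tested passed in KO against control. By clone, Csn3, a casein, was lower in KO1 (-3.34 on the log2 scale, adjusted p = 0.0398, edgeR). In KO2, Mfge8 was higher (0.83, adjusted p = 0.0274) and Lcn2 lower (-3.39, adjusted p = 0.0272, edgeR). The list summed to 157 to 316 CPM, most of it Mfge8, which was at 138 and 160 CPM in control. Of 14 basal markers, Krt5 and Krt6a had none, and the list summed to 81 to 84.5 CPM in control, 48.3 to 60.3 in KO1 and 109 to 388 in KO2. Most of that sum was Procr (69 and 74.2 CPM in control, 31.7 to 39.8 in KO1, 104 to 375 in KO2), whereas the basal keratins Krt14 (means of 7.6, 11.2 and 3.46 CPM) and Krt17 were lower in KO2 than in KO1 (-1.69 and -3.47, adjusted p = 0.0968 and 0.0773, edgeR). The part of these lists in the results on the factors was not tested. Summed markers of leukocytes were at 12.1 to 48.7 CPM (9 genes, Adgre1 at 0), of endothelium at 0.127 to 2.65 (7 genes, none at 0 throughout, with Cdh5 called higher in KO2 at a mean of 0.713 CPM against 0.011 in control, adjusted p = 0.0317, edgeR) and of fibroblasts and adipocytes at 12.6 to 48.2 (11 genes; Dcn, Lum and Thy1 at 0).

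MaTAR25 ChIRP peaks were assigned to 6 of the 10 factors by the nearest annotated promoter in the 4T1 total list, against 52.9% of all genes. The odd list gave 5 (47.5% of all genes), the even list 5 (46.3%) and the NDL list 6 (51.5%), so by this assignment the share of factors with a peak was near that of all genes. At a score of at least 100 it was above that share, with 4 of 10 in the total (21.6% of all genes), even (15.3%) and NDL (19.3%) lists and 3 of 10 in the odd list (19.7%). Among the genes tested in RNA-seq these shares were higher, at 26.2% in the total, 18.6% in the even, 22.7% in the NDL and 23.5% in the odd list. A peak within 10 kb of the start was found for 7 of 10 in the even list (39.0% of all genes), 5 in the total (46.4%) and NDL (43.9%) lists and 4 in the odd list (38.5%). Gata3 and Elf5, both on chromosome 2, had such a peak in the even list alone. That list has a limit on chromosome 2, given below, so its count is uncertain. By nearest promoter, Gata3, Elf5, Esr1 and Ehf had a peak assigned in all 4 lists. Sox10 had one so assigned in the total, even and NDL lists. Tbx3 had peaks so assigned in the total, odd and NDL lists, with scores of 22.0 to 38.4. The strongest Ehf peak of each list scored 15.9 to 43.7, and all of these were near or below the medians of the lists (38.2 to 42.9). No peak was assigned to Foxa1, Tbx2, Sox9 or Elf3 in any list. Within 10 kb of its start, however assigned, Tbx2 had 1 peak in each 4T1 list and none in the NDL list, Sox9 had 2 in every list but the odd one, Elf3 had 1 in the odd list and 2 in the others, and Foxa1 had none. The peaks were called over pooled replicates, so no spread or test can be given, and scores compare within a list only.

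In the total, odd and NDL lists the strongest peak of any factor lay in Elf5, which had at most 2 counts of RNA per 4T1 library. Elf5 spans 103411688 to 103450989 on the plus strand of chromosome 2 (GRCm38). In the odd list its peak at chr2:103442571-103443320 scored 2095.5, rank 57 of 61311 peaks, where the median score of the list was 42.9. In the NDL list the peak at chr2:103441438-103443309 scored 795.9, rank 58 of 70329, and in the total list chr2:103442574-103443198 scored 758.6, rank 178 of 76806. In the even list the peak at the same place, chr2:103442558-103443057, scored 21.6, rank 51591 of 64607. The peak therefore stood near the top of the lists whose pool held the odd oligos and low in the even list.

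A run of 17 bases inside this peak matches oligo 7 of the odd pool, which was designed against MaTAR25 RNA. The match spans chr2:103442792-103442808, with 9 bases in an intron of Elf5 and 8 in the coding exon from 103442801 to 103442851. The 300 bases from chr2:103442650-103442949 (plus strand, GRCm38) are shown with the matched bases in capitals, beside the oligo, which is complementary to them from its base 4 to its base 20.

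Elf5 peak: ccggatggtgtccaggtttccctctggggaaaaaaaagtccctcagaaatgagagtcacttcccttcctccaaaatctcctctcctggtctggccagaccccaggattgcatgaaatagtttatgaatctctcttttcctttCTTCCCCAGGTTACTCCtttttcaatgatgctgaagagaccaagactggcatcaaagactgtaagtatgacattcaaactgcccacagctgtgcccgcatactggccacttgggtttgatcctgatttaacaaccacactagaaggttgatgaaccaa
oligo 7: ttgGGAGTAACCTGGGGAAG

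A match this long to 1 or more of the 14 oligos was found in 0.0603% of odd-list, 0.0482% of total-list, 0.0498% of NDL-list and 0.0480% of even-list peaks. The part of this match in the peak was not tested.

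Esr1 had 10 to 17 peaks per list, the most of any factor outside the even list, and 16 of its 17 in the total list are annotated as intronic. Esr1 spans 4611593 to 5005614 on the plus strand of chromosome 10 and is the longest of the 10 genes at 394022 bp. Its strongest peak was the same in all 4 lists. At chr10:4896282-4896907 it scored 489.8 in the total list (rank 946), and its counterparts scored 516.4 in the odd list (rank 2169), 433.9 in the even list (rank 361) and 395.3 in the NDL list (rank 1223). The sequence at this peak is a tandem repeat of the letters CTAT with up to 14 copies in a row. Runs of at least 5 CTAT or ATAG, the same letters on the other strand, occurred in 0.185% of 300-base windows centred on the peaks of the total list. The window printed below was placed around the oligo match, not the peak centre, so the share is not a like measure for it.

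Esr1 peak, chr10:4896316-4896615, plus strand, capitals mark 11 bases shared with oligo 4: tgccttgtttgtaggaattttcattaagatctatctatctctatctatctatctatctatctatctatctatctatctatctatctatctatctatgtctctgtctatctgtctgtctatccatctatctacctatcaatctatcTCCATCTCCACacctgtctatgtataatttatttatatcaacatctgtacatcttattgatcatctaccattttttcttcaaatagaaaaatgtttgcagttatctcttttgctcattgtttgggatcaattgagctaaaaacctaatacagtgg

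The strongest Gata3 peaks in the 4T1 lists were intergenic. They lay at chr2:9823708-9824332 in the total list (score 280.6, rank 3475, with a 14-base match to oligo 12), at chr2:9813577-9814455 in the odd list (552.6, rank 1962, with a 14-base match to oligo 3) and at chr2:9823683-9824182 in the even list (198.3, rank 3379). Gata3 also carried a peak annotated as promoter, its strongest in the NDL list and shown here because it lies at the gene, within its span and before one of its annotated starts, and Sox10 one in an intron. Gata3 spans 9857078 to 9890034 on the minus strand of chromosome 2, and its promoter peak at chr2:9878956-9879581 scored 217.0 in the total list (rank 5553), with counterparts of 98.1 in the even list and 155.4 in the NDL list and none in the odd list. The Sox10 peak at chr15:79160562-79161311 scored 403.4 in the total list (rank 1584), 185.0 in the even list and 216.3 in the NDL list. The odd list had no peak there, and its 1 peak near Sox10 lay before the gene at chr15:79168790-79169415 with a score of 267.8 (rank 5105). The longest oligo match was 11 bases (oligo 8) in the Gata3 window and 14 bases (oligo 12) in the Sox10 window. At least 12 bases matched in 24.2% and at least 14 in 3.93% of all total-list peaks, so matches of 11 bases are frequent in that list and those of 14 less so.

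Gata3 peak, chr2:9879113-9879412, plus strand, capitals mark the match to oligo 8: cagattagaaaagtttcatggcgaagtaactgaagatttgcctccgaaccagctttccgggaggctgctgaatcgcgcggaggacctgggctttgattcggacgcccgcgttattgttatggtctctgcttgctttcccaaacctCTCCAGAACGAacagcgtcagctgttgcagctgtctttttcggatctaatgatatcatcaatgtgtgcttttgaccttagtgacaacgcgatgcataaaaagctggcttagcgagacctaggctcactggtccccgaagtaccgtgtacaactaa
Sox10 peak, chr15:79160827-79161126, plus strand, capitals mark the match to oligo 12: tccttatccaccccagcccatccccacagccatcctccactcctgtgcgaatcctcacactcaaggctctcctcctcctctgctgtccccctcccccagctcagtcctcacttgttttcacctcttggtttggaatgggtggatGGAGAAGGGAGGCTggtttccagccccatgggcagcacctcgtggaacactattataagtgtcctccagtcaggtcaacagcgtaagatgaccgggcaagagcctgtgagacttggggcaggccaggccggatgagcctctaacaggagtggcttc

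The even list has a limit on chromosome 2, where Gata3, Elf5 and Ehf lie. It holds 8877 peaks on chromosome 2 and 0 on chromosome 3, against 5666 and 4659 in the total list, and 3166 of its chromosome 2 peaks overlap, by position alone, a chromosome 3 peak of the total list. Of the 16 even-list peaks at Gata3, 7 overlapped a total-list peak on chromosome 2 and 7 had the position of one on chromosome 3. For Elf5 these were 3 and 4 of 8 peaks. Which of these even-list peaks belong to chromosome 2 was not tested. Without the genes on chromosomes 2 and 3, a peak was assigned to 3 of 7 factors in the total (52.1% of all genes) and NDL (51%) lists and to 2 of 7 in the odd (46.7%) and even (47.9%) lists.

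**Figure D2:**
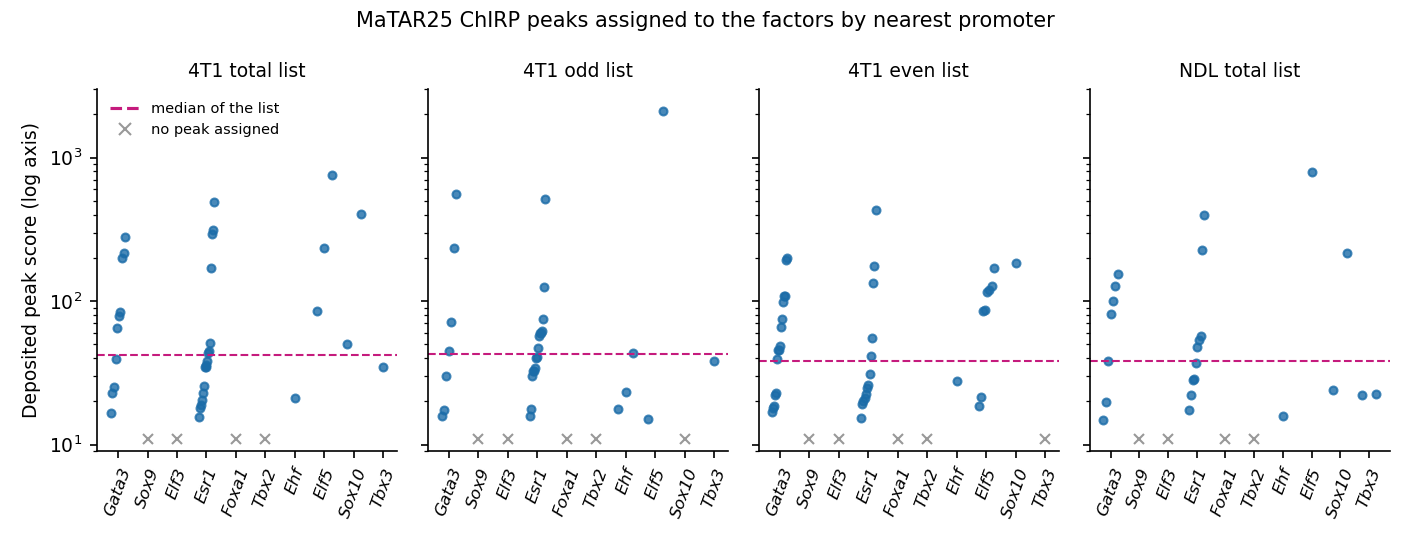
Deposited scores (log axis) of every MaTAR25 ChIRP peak assigned to each factor by nearest promoter in the 4 lists, with the median score of the list as a dashed line and a cross for a factor with no peak. Elf5 reaches 2095.5 in the odd list and 170.4 in the even list, Esr1 has its highest peak between 395.3 and 516.4 in all lists, and Foxa1, Tbx2, Sox9 and Elf3 have none.

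Loss of MaTAR25 was first compared by taking all 7 KO libraries against the 2 control libraries. Tbx2 fell, and no other factor passed the test, so 1 of the 7 tested factors was called, against 22.6% of all tested genes (10.7% lower, 11.9% higher). Of all tested genes, 34.4% had no overlap between KO and control libraries, and of these 7 factors 1 did, Tbx2.

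Tbx2, a repressor of cell-cycle inhibitors, spans 85832551 to 85841948 on the plus strand of chromosome 11. The control libraries held 54 and 34 Tbx2 counts, those of KO1 2, 2 and 1, and those of KO2 9, 4, 20 and 10. In CPM the control libraries were at 1.19 and 1.04, those of KO1 at 0.0319, 0.0663 and 0.0271, and those of KO2 at 0.251, 0.168, 0.452 and 0.204. All 7 KO libraries lay under the lower control library, and every KO1 library was below every KO2 library. KO cells averaged 0.172 ± 0.151 CPM (SD, n = 7) and control cells 1.11 ± 0.105 CPM (SD, n = 2). The fitted fall was 6.36-fold (log2 fold change -2.67, SE 0.75, Benjamini-Hochberg adjusted p = 0.0381 from the quasi-likelihood test of edgeR). The two-sided exact permutation test gave p = 0.0278, the smallest that 2 against 7 libraries allow. The 7 KO libraries come from 2 clones, which differ in Tbx2 as given below. Both p-values and the SD thus take libraries, not clones, as the unit. In RNA from bulk cells, fewer cells with Tbx2 and less Tbx2 RNA per cell cannot be told apart.

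The fall was larger in KO1 than in KO2. Against control, Tbx2 changed by -4.71 on the log2 scale in KO1 (SE 0.58, adjusted p = 0.00113, edgeR), or 26.2-fold, and by -2.01 in KO2 (SE 0.45, adjusted p = 0.0129), or 4.03-fold. The clones themselves differed by 2.70 on the log2 scale (SE 0.55, adjusted p = 0.0185, edgeR). With 1 or 2 counts in each KO1 library, the KO1 value is close to the limit of what these libraries can count. The call in KO against control rests on both control libraries, with an adjusted p of 0.250 without control replicate 1 and 0.193 without control replicate 2 (edgeR), and the KO2 call was lost without control replicate 1 (adjusted p = 0.126, edgeR). Without KO2 replicate 3, the highest KO library, Tbx2 was called in KO at -3.15 (adjusted p = 0.0182) and in KO2 at -2.39 (adjusted p = 0.00525). Tbx3, the close relative of Tbx2, had no count in any library and gives no value here.

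**Figure D3:**
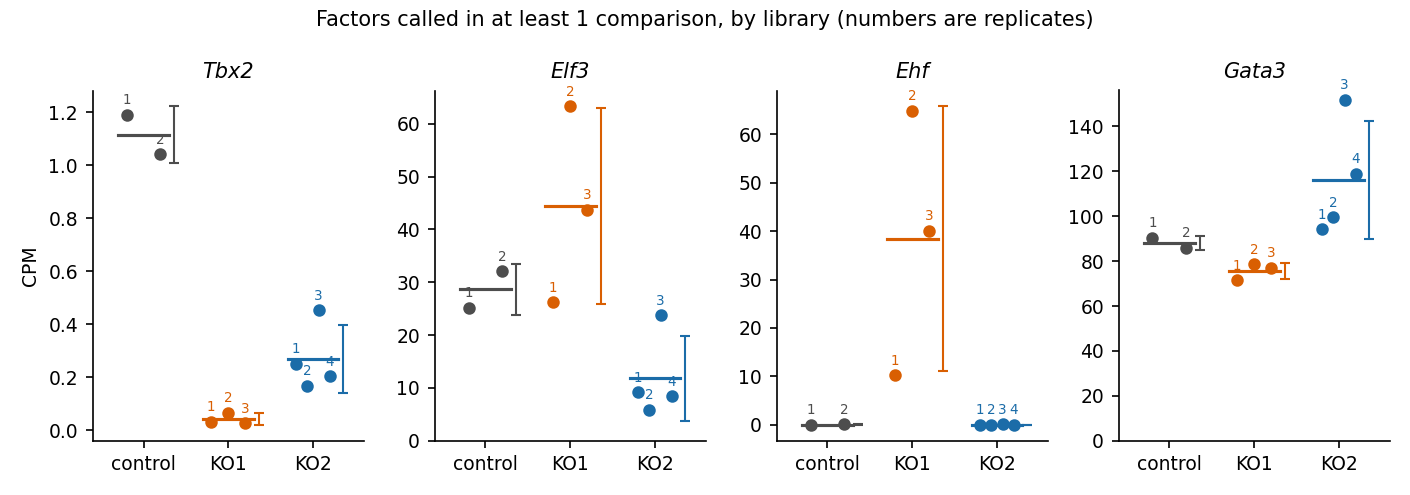
CPM by library of the 4 factors that passed the test in at least 1 comparison, with points numbered by replicate, a line at the group mean and a bar of ± 1 SD (control n = 2, KO1 n = 3, KO2 n = 4). Tbx2 is at 1.04 CPM or more in control and at 0.452 or less in KO libraries, Elf3 is lowest in KO2, Ehf is at 10.2 to 64.9 CPM in KO1 and at or near 0 elsewhere, and Gata3 is at 71.4 to 78.5 CPM in KO1 and at 94.2 to 152 in KO2.

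The luminal factors Gata3, Foxa1 and Esr1 did not pass the test in KO against control. Gata3 was at 90.4 and 85.9 CPM in control, 71.4, 78.5 and 77.0 in KO1 and 94.2, 99.5, 152 and 119 in KO2. All KO1 libraries lay below and all KO2 libraries above the control libraries, so the pooled change was small at 0.16 on the log2 scale (SE 0.27, adjusted p = 0.72, edgeR). Neither clone passed against control. The values were -0.22 for KO1 (adjusted p = 0.467) and 0.40 for KO2 (adjusted p = 0.175). KO2 was higher than KO1 by 0.62 on the log2 scale, or 1.54-fold (SE 0.17, adjusted p = 0.0498, edgeR). Without any 1 of the KO1 libraries the adjusted p of that difference was 0.118 to 0.155. Without KO2 replicate 3 it was 0.47 (adjusted p = 0.0421, edgeR).

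Foxa1, at chromosome 12 from 57540628 to 57546916, was at 5.71 and 6.25 CPM in control. In KO1 it was at 9.0, 9.42 and 7.74 CPM, and in KO2 at 8.53, 5.98, 14.2 and 5.62. Its KO1 libraries lay above both control libraries, and its KO2 libraries lay on both sides of them. The change in KO cells was 0.53 on the log2 scale (SE 0.36, adjusted p = 0.346, edgeR). Esr1 levels were 22.8 and 25.1 CPM in control, 18.1, 17.9 and 17.4 CPM in KO1 and 10.2, 21.5, 25.2 and 21.1 CPM in KO2, a change of -0.35 (SE 0.28, adjusted p = 0.428, edgeR). The KO1 libraries were close together below control, and 1 KO2 library lay just above it. When KO1 and control alone were fitted, both passed, Foxa1 at 0.55 (adjusted p = 0.0635) and Esr1 at -0.42 (adjusted p = 0.0409, edgeR), so these calls depend on which libraries give the spread.

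Sox9, at chromosome 11 from 112782224 to 112787760, was the steadiest of the tested factors. Its levels were 66.0 and 63.1 CPM in control, 80.6, 59.1 and 65.5 CPM in KO1 and 75.8, 61.7, 71.7 and 56.8 CPM in KO2. Its libraries overlapped in every comparison, and its log2 fold changes of 0.06, 0.08, 0.04 and -0.04 (SE 0.16 to 0.19, adjusted p of 0.779 to 0.889, edgeR) were the smallest in size of the tested factors in the comparisons with control. Sox10 had too few counts to be tested, at most 1 in any library.

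Against control alone, KO1 had 2 of the 7 tested factors called, Ehf higher and Tbx2 lower, against 31.6% of all tested genes (15.9% higher, 15.7% lower). KO2 also had 2, Tbx2 and Elf3, both lower, against 31.4% of all tested genes (16.5% higher, 15% lower). Tbx2 was called in both clones, which share the 2 control libraries, so the 2 calls are not independent. Between the clones, 4 of the 7 were called, Gata3 and Tbx2 higher and Elf3 and Ehf lower in KO2 than in KO1, against 19.6% of all tested genes (10.2% higher, 9.43% lower). Libraries without overlap were seen in 5 of the 7 in KO1 against control (66.9% of all tested genes), in 3 in KO2 against control (46.9%) and in 4 between the clones (24.5%).

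Ehf, an ETS factor of epithelial cells, differed most between the clones. It lies on chromosome 2 from 103263433 to 103303278 on the minus strand, in the same neighbourhood as Elf5. The KO1 libraries held 640, 1956 and 1483 Ehf counts, against 0 and 2 in control and 0, 0, 2 and 0 in KO2. In CPM this was 10.2, 64.9 and 40.1 for KO1, 0 and 0.0610 for control and 0, 0, 0.0452 and 0 for KO2. Every KO1 library was far above the other 6 libraries, and KO1 replicate 1 was well below the other KO1 libraries. Over the group, 4079 counts in KO1 stood against 2 in control, a ratio of 1230 at equal depth (95% interval 340 to 10200), and against 2 in KO2, a ratio of 2400 (95% interval 664 to 19800), intervals that cover counting error only. edgeR gave a log2 fold change of 10.36 in KO1 (SE 1.28, adjusted p = 0.00114) and of -11.22 between KO2 and KO1 (SE 0.99, adjusted p = 0.000785), and these fitted values depend on how counts of 0 are treated.

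Per exon length, Ehf rose from 0.00547 CPM per kb in control to 6.89 in KO1, beside 20.0 for its relative Elf3 in the same cells. In KO2 it did not differ detectably from control (log2 fold change -0.86, SE 1.93, adjusted p = 0.777, edgeR). With the clones pooled, the value was 9.12 with an SE of 4.54 (adjusted p = 0.201, edgeR). DESeq2 called it at an adjusted p of 0.0709, and the 3-group fit of edgeR at 0.0779 with a much smaller value, 4.75 on the log2 scale.

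Elf3, its epithelial relative at chromosome 1 from 135253575 to 135258568, also differed between the clones. Control libraries were at 25.2 and 32.1 CPM of Elf3, KO1 libraries at 26.2, 63.3 and 43.7, and KO2 libraries at 9.12, 5.85, 23.7 and 8.42. All KO2 libraries were below all others, and KO2 replicate 3 was close to control. Elf3 fell by 1.28 on the log2 scale in KO2, or 2.43-fold (SE 0.51, adjusted p = 0.0977, edgeR), and was 1.91 lower in KO2 than in KO1, or 3.76-fold (SE 0.46, adjusted p = 0.0309). In KO1 against control the change was 0.63 (SE 0.56, adjusted p = 0.445). The KO2 call is at the edge of the threshold. It was lost without control replicate 1 (adjusted p = 0.237), control replicate 2 (0.368) or KO2 replicate 1, 2 or 4 (0.180, 0.140 and 0.168), and without KO2 replicate 3 it was -1.87 (adjusted p = 0.00697, edgeR). The difference between the clones was lost without KO1 replicate 2 (adjusted p = 0.137).

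Within KO1, Ehf and Elf3 had the same order over libraries, lowest in replicate 1 and highest in replicate 2. Within KO2, replicate 3 was highest for both, although Ehf had only 2 counts there. An antisense gene, Gm26642, shares 162 bp of exon with Elf3 and had 31 to 79 counts per library, against 139 to 1907 for Elf3. Gm13256 and 9230102O04Rik overlap exons of Gata3 by 155 and 77 bp and had 2 to 19 and 12 to 116 counts, against 2362 to 6715 for Gata3. No source used here says whether strand entered the counting, so reads of these partners may not be told apart.

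**Figure D4:**
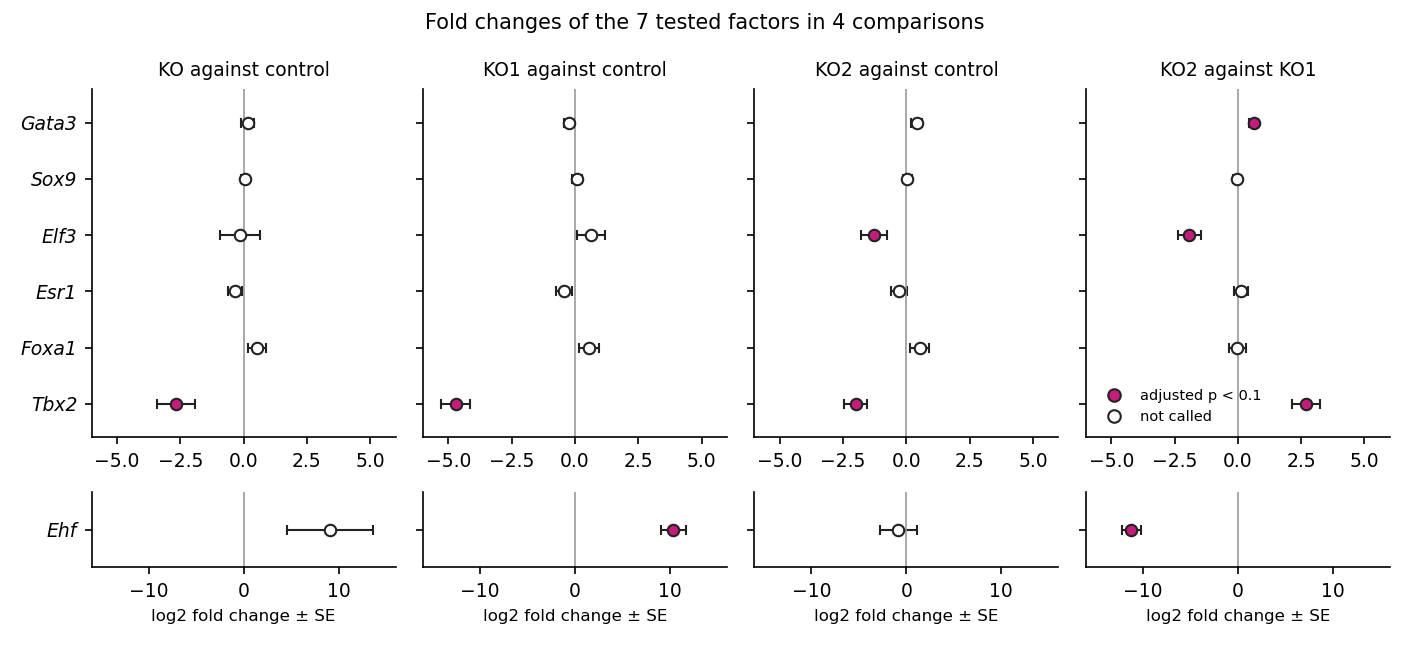
log2 fold change ± SE (edgeR) of the 7 tested factors in the 4 comparisons, filled where the adjusted p is under 0.1. The lower row has its own scale for Ehf, which is at 10.36 in KO1 and -0.86 in KO2 against control. Tbx2 is below 0 in all comparisons with control, and Sox9 is near 0 throughout.

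The 3 tested genes whose log2(CPM + 1) pattern over the 9 libraries came closest to each factor were listed as a description. For Ehf these were Asb2, Nos2 and Gm14023, with root mean square differences of 0.78, 0.818 and 0.923 where Ehf itself varied by 2.41. Asb2 was at 2.41, 20.2 and 14.7 CPM in KO1 and at 0.158 or less elsewhere, the same order of KO1 libraries as Ehf. For Elf3 they were Mall, Ramp1 and Bst1 (0.212, 0.231 and 0.35, against 1.03 for Elf3), and Mall was at 4.76 CPM in both control libraries, 4.21, 8.46 and 7.44 CPM in KO1 and 0.976, 0.0421, 2.44 and 0.429 in KO2. For Tbx2 they were Rab10, Epc2 and Ptpn3, at 0.0765 to 0.0784 against 0.387, and these genes of higher level fell by far less in proportion, since the pseudocount of 1 compresses Tbx2.

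Gata3 was most like Erich1, Gm20257 and Jkamp (0.0849 to 0.117, against 0.318 for Gata3), Esr1 most like Sgpp1, Zfp729a and Coq9 (0.0933 to 0.121, against 0.353), Foxa1 most like Gemin4, Plb1 and Cpm (0.141 to 0.15, against 0.371) and Sox9 most like D17H6S53E, Gm26582 and 4933430I17Rik (0.0549 to 0.0786, against 0.155). Each likeness is over the same 9 libraries and was taken from all tested genes.

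Genes next to Ehf and Tbx2 were also compared, and were chosen after their values were seen. Their calls stand beside 31.6% of all tested genes in KO1 (15.9% higher, 15.7% lower) and 31.4% in KO2 (16.5% higher). Whether the neighbours depart from these shares was not tested. Within 500 kb of Ehf, 7 other genes were tested, and in KO1 none was higher and 1 was lower, Abtb2 (log2 fold change -1.88, adjusted p = 0.00991, edgeR), which was lower in KO2 as well (-2.14). Cat, on the far side of Elf5 from Ehf, changed by 0.09 (adjusted p = 0.75). Elf5 lies between Ehf and Cat and kept 0 to 2 counts, while Apip and Pdhx on the other side of Ehf were at -0.31 and 0.31 (adjusted p = 0.547 and 0.227). Within 500 kb of Tbx2, 6 genes were tested, and Brip1, Brip1os and Ints2 were higher in both clones (0.68 to 1.51 on the log2 scale), the opposite direction to Tbx2. Med13 was lower in KO1 (-0.53, adjusted p = 0.0606, edgeR), the same direction as Tbx2, and was not called in KO2 (-0.11). Bcas3, which ends just before the start of Tbx2, changed by -0.42 in KO1 and -0.51 in KO2 (adjusted p = 0.504 and 0.384, edgeR).

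**Figure D5:**
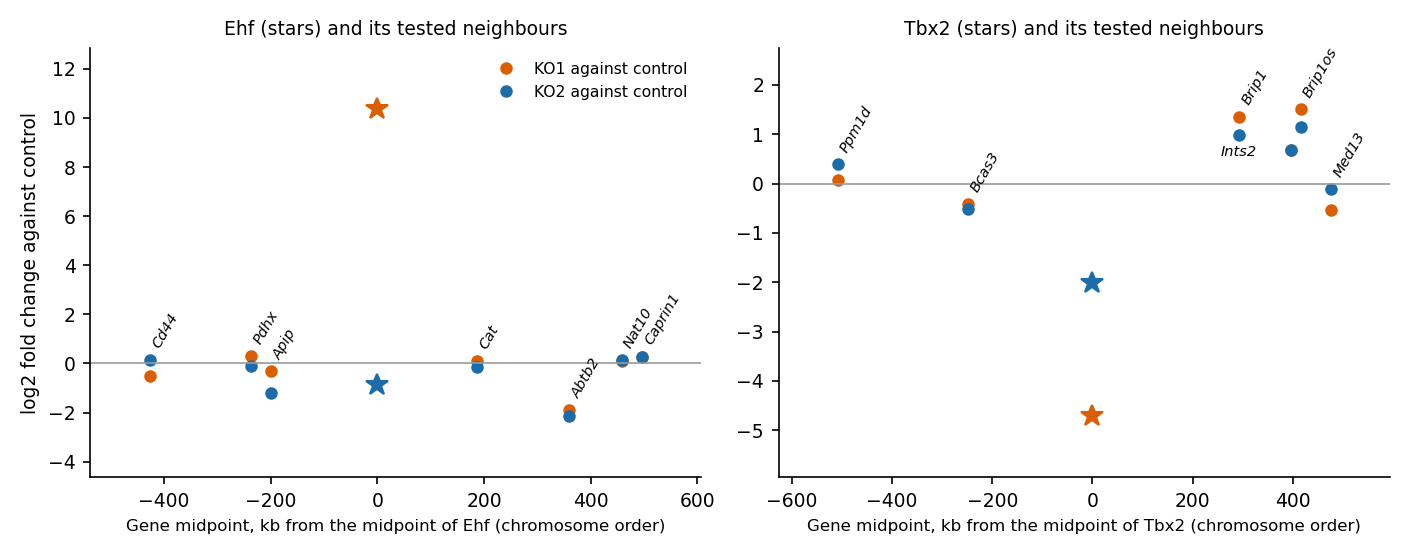
log2 fold change against control (edgeR) in KO1 and KO2 of Ehf and Tbx2 (stars) and of the tested genes within 500 kb (points), placed by the distance between gene midpoints in kb. Ehf stands alone at 10.36 in KO1, and Tbx2 lies below all its tested neighbours in both clones.

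Relatives of the factors were counted to show how far the families moved. In the same comparison, KO against control, 22.6% of all tested genes were called (11.9% higher, 10.7% lower). Of 3 tested GATA relatives, Trps1, a GATA-type repressor, fell by 0.54 on the log2 scale in KO against control (adjusted p = 0.0269). Gata4 at -0.47 (adjusted p = 0.39) and Gata2 at 4.46 (adjusted p = 0.174) were not called. By clone, Gata4 was lower in KO1 (-0.97, adjusted p = 0.0344). Gata2 was higher in KO2 (5.23, adjusted p = 0.0117), at a mean of 1.55 CPM against 0.0372 in control. Of 3 ETS relatives Elf2 fell by 0.64 (adjusted p = 0.0486), while Elf1 and Elf4 were at -0.40 and -0.03 and were not called. Of 6 T-box relatives Eomes fell by 1.67 (adjusted p = 0.0248) from a mean of 26.5 CPM in control to 5.75 in KO1 and 10.2 in KO2, while Mga (0.55) and Tbx15 (-0.45) were not called. Of 6 SOX relatives Sox13 was higher by 3.84 (adjusted p = 0.0489) and Sox21 lower by 1.77 (adjusted p = 0.0882). Esrra, a receptor related to Esr1, was higher by 0.61 (adjusted p = 0.0319, edgeR for all), 1 of 2 tested in its family. The 2 relatives of Foxa1 had too few counts to test.

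Among 20 cofactors of these factors, 1 rose and 4 fell, with a median log2 fold change of -0.30 beside 0.055 over all tested genes. The 5 of 20 called stand beside 22.6% of all tested genes (11.9% higher, 10.7% lower). Zfpm2, a GATA cofactor, rose by 2.17 (adjusted p = 0.0468), and Ncoa1, a coactivator of ESR1, fell by 1.48 (adjusted p = 0.00293). Lmo4 fell by 0.99 (adjusted p = 0.0239), Tle1 by 0.59 (adjusted p = 0.0337) and Tle3 by 0.56 (adjusted p = 0.0915, edgeR for all). In KO1 1 rose and 4 fell, where 31.6% of all tested genes were called, and in KO2 1 rose and 3 fell, where 31.4% were.

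Genes known as targets of the factors moved in both directions. Their calls in KO against control stand beside 22.6% of all tested genes (11.9% higher, 10.7% lower). Of 8 tested T-box 2 and 3 targets, Cst6, which TBX2 is known to repress, was higher by 2.45 (adjusted p = 0.0118), while Ndrg1, another gene it is known to repress, was lower by 2.01 (adjusted p = 0.00409), as were Cdkn1c (-2.90, adjusted p = 0.0578) and Cdh1 (-0.65, adjusted p = 0.0684, edgeR for all). Cdkn2a and Cdkn2b had no count in any library. Of 9 tested targets of the oestrogen receptor, Ccnd1 (2.01), Igfbp4 (1.41) and Myb (3.34) were higher and Stc2 (-3.57) was lower. Areg, an EGF-family ligand downstream of ESR1 in the gland, was at a mean of 89.2 CPM in control, 9.59 in KO1 and 50.9 in KO2. It fell in both clones against control (-3.22 and -0.81, adjusted p = 0.000577 and 0.0251, edgeR), and Pgr, the usual marker of receptor activity, was at 0.0110 CPM at most on average. Of 7 tested SOX9 and SOX10 targets, Col11a2 was lower by 3.63 (adjusted p = 0.000473).

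The luminal markers differed between the clones. Of 13 tested, 3 were higher in KO1 than in control, Krt7 (1.89, adjusted p = 0.00468), Krt8 (1.32, adjusted p = 0.0232) and Cited1 (4.42, adjusted p = 0.043, edgeR for all). None was lower in KO1, and 10 were not called. In KO2, Cd24a was higher (1.10), Cdh1 (-0.85) and Cldn4 (-1.85) were lower, and 10 were not called. Of all tested genes, 31.6% were called in KO1 (15.9% higher), 31.4% in KO2 and 19.6% between the clones (9.43% lower). Between the clones 6 were lower and 1 higher in KO2 than in KO1, with a median of -0.58 beside 0.023 over all tested genes. This moved beside the lower Elf3 and Ehf of KO2. The luminal factor Gata3 went the other way, higher in KO2 than in KO1 by 0.62 (adjusted p = 0.0498, edgeR). Foxa1 (-0.02) and Esr1 (0.13) were not called between the clones. A link between these markers and any factor was not tested. Of 4 tested leukocyte markers, Cd14 was higher in both clones (1.67 in KO1 and 1.55 in KO2). Cd68 was higher in KO1 (2.39, adjusted p = 0.0958), and Ptprc was higher in KO2 than in KO1 (means of 0.356 and 0.0311 CPM, adjusted p = 0.0972, edgeR).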

How the data were processed

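The deposited RNA-seq values are raw counts per gene, made by the authors from single-end reads with STAR on GRCm38 and HTSeq on GENCODE vM5. The KO2 replicate 2 table repeats every gene 3 times, and 1 copy was kept. Reads in no gene, 33.92 to 37.0% of a library, were left out. The deposited ChIRP peak scores come from Bowtie2 alignments and HOMER, run by the authors over pooled replicates at 50-fold or more over the Ppib pulldown and annotated with GENCODE vM16. The scaling of the scores was not given in the sources.

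Counts were analysed with edgeR 4.0.16 in R 4.3.3 (TMM, filterByExpr, quasi-likelihood test, Benjamini-Hochberg adjustment over 15023 genes, threshold 0.1). KO against control was fitted as 2 groups and the clones in a 3-group fit. Counts simulated for KO against control (14767 genes) held 200 genes given a log2 change of 2. The test recovered 98.5% of those 200, and its false calls made up 9.63%. Both rates describe the simulated counts only. Whether they hold for pooled clones that differ, or for genes as low as Tbx2, was not tested. DESeq2 1.42.0, RLE, other filters, a threshold of 0.05, the replicate block, other sample sets and leaving out each library were alternatives, and for peaks other assignments, a score of 100 and a 50% overlap. Positions and exon lengths are of GENCODE vM21. The named genes are the 10 factors, up to 4 genes per list with the smallest p in KO against control, those a statement rests on, the 3 nearest patterns and each factor's strongest peaks. The members, lists and tests were chosen with earlier results of these data known.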

Additional observations from a re-analysis of the deposited data

Results flagged for a closer look

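The 2 clones differed from each other in 4 of the 7 tested factors, by the test of the difference itself (edgeR, KO2 minus KO1 on the log2 scale). The difference was 0.62 for Gata3 (adjusted p = 0.0498), 2.70 for Tbx2 (adjusted p = 0.0185), -1.91 for Elf3 (adjusted p = 0.0309) and -11.22 for Ehf (adjusted p = 0.000785). Each clone is 1 cell's progeny, so a clone and its deletion cannot be told apart. Other named genes differed between the clones in the same test. They were Gata2 at 4.86 (adjusted p = 0.0141), Gata4 at 0.79 (adjusted p = 0.0641), Sox4 at 0.70 (adjusted p = 0.0963), Sox12 at 2.96 (adjusted p = 0.0507), Krt7 at -1.65 (adjusted p = 0.00694), Krt8 at -0.80 (adjusted p = 0.0874), Cldn4 at -1.55 (adjusted p = 0.011), Cd24a at 0.74 (adjusted p = 0.0225), Cited1 at -3.39 (adjusted p = 0.0506) and Areg at 2.41 (adjusted p = 0.000785). Markers of other lists were Procr at 2.38 (adjusted p = 0.0131), Krt14 at -1.69 (adjusted p = 0.0968), Krt17 at -3.47 (adjusted p = 0.0773), Mfge8 at 0.75 (adjusted p = 0.0379), Lcn2 at -5.54 (adjusted p = 0.00945), Ptprc at 3.72 (adjusted p = 0.0972) and Cdh5 at 7.81 (adjusted p = 0.0208), where KO1 had no Cdh5 count and the fitted value is no bound.

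Of 18 groups of libraries looked at over the factors, 1 held a library far from the others, where chance gives about 1 in 20. Ehf was at 0.0452 CPM in KO2 replicate 3 and at 0 in the other 3 KO2 libraries, so the gap made up the whole range (a share of 1), and it rests on 2 counts.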

How the results depend on the processing

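The number of factors called moved with the settings, and no value that passed the test changed direction. In KO against control, where 1 was called, DESeq2 and the 3-group fit gave 2, with Ehf added, and at least 10 counts in every library gave 0, since Tbx2 then leaves the test. Leaving out 1 library gave 0 to 1. In KO1 against control, where 2 were called, at least 10 counts in every library gave 0, fitting only the groups compared gave 4, and leaving out 1 library gave 2 to 2. In KO2 against control, where 2 were called, at least 10 counts in every library, a threshold of 0.05 and only the groups compared each gave 1, and leaving out 1 library gave 0 to 2. In KO2 against KO1, where 4 were called, at least 10 counts in every library gave 2, and leaving out 1 library gave 2 to 4. Of 382 values of single factors under an alternative, 347 kept their direction and side of the threshold, 16 lost the call, 4 gained it and 15 changed sign, none past the threshold in either fit. With the replicate block, Gata3 in KO against control was -0.04, and between the clones Foxa1 was 0.06 and Sox9 0.03. Leaving out 1 library, Elf3 in KO against control ran from -0.55 to 0.04, Sox9 from -0.05 to 0.18 in KO1 and from -0.02 to 0.11 in KO2, and Ehf in KO2 from -3.21 to 2.40. Between the clones, Foxa1 ran from -0.37 to 0.14, Sox9 from -0.14 to 0.09 and Esr1 from -0.01 to 0.35. Where no cause is given it was not tested.

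With the replicate block, 0 factors were called in KO against control (Tbx2 at -3.14, adjusted p = 0.118, edgeR), and Gata3 was not called between the clones (0.57, adjusted p = 0.11, leaving 3), and no other call on a factor changed. Over all genes the block gave 1952 calls in KO against control and 1736 between the clones, against 3392 and 2944. The 7 same-numbered pairs of libraries had correlations of -0.196 to 0.0558, none over 0.1, so the numbers give no pairing.

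Factors with a peak without chromosomes 2 and 3 numbered 3 in the total and NDL lists and 2 in the odd and even lists, of 7, and at a score of at least 100 the odd list gave 3 of 10. Over all genes, KO against control gave 462 calls without control replicate 1 and 574 without control replicate 2, against 3392. Without control replicate 1 or 2, KO1 gave 1482 or 1764 against 4750 and KO2 1366 or 1456 against 4724, and without KO1 replicate 2 the clones gave 874 against 2944. The 2 control libraries and single clones limit every comparison, and the 3 factors with at most 2 counts in every library could not be tested.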
